A study of Arabidopsis thaliana with 12 samples.

Results

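The NAC genes encode a plant-specific family of transcription factors that bind DNA through a conserved N-terminal domain. The genes described are 42 NAC loci of Arabidopsis thaliana, chosen by locus code, out of 28775 genes counted and out of 113 loci that the annotation names as NAC or NAM genes. The list was drawn up with earlier results from these same libraries in view, and which values were used is not recorded. Every comparison is therefore treated as open to that choice, and the values of the 42 genes are given as a description, with no p-value. All 42 carry a NAC or NAM name in the annotation, so the label holds. Of the 42, 39 had enough counts to be tested, and ANAC060, ANAC028 and NAC025 did not.

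NAC proteins take part in leaf senescence, drought and jasmonate responses, and signalling from stressed organelles. Several are made as dormant proteins anchored in a membrane of the endoplasmic reticulum or of another compartment, and enter the nucleus once they are cut free. Age, darkness, ethylene and abscisic acid are known to raise the senescence members in leaves, and a microRNA, miR164, holds some of them down in young tissue.

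RNA was sequenced from seedlings of ecotype Col-0 that were 3 weeks old, giving 4 groups with 3 libraries in each (12 in all). At issue is how SnRK1, a protein kinase that senses low energy, and the bZIP transcription factors of group S1 shape gene expression in starvation. One line carried a knockout of snrk1-alpha-1 with an inducible knockdown of snrk1-alpha-2. From 14 d of age, this line and a wild type were given 6 d of an additive labelled Est. The other line lacked bZIP1 and bZIP53 (knockouts) and had bZIP2, bZIP11 and bZIP44 under an inducible knockdown. It and a second wild type stayed on MS for 5 d more and then received Est for 1 d. All 4 groups, wild types included, grew in a 12 h light and 12 h dark cycle and were harvested after a night extended by 6 h. There is no library without Est or without the extended night, so the response to darkness itself was not measured. The sources used here do not say which promoter drives the knockdowns or whether a line is 1 clone.

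Libraries held 3760168 to 9403687 counts. Levels are given as normalised CPM (counts scaled to library size with trimmed means), and a fold change is the fitted log2 value with its standard error (n = 3 libraries a group). A gene is "called" where its p from edgeR, Benjamini-Hochberg adjusted across the 18388 genes tested, is under 0.05. Whether replicates were separate cultures is not stated, so the tests measure the spread between these libraries, which may be technical. The kinase gene KIN11 (snrk1-alpha-2) stood at 28.3 to 43.4 CPM in its line and 85.4 to 114 CPM in the wild type. In the bZIP line bZIP1 stood at 17.9 to 26.6 CPM against 119 to 143 CPM. The knockdown target bZIP2 was not lower there, at 58.8 to 72.3 CPM against 61.4 to 74.4 CPM, so the names SnRK1-labelled line and S1-labelled line are used for them. Of the 7 targeted genes, bZIP1, bZIP53 and KIN11 were called lower in the S1-labelled line and bZIP2, bZIP11, bZIP44 and KIN10 were not called. In the SnRK1-labelled line KIN10, KIN11 and bZIP1 were called lower and 4 were called higher, bZIP11 the most, at 61.9 to 72.3 CPM against 1.15 to 1.42 CPM. In the SnRK1-labelled line all 4 leaf marker genes were called lower, with a summed level of 4060 to 8510 CPM against 28800 to 37600 CPM. The 3 root marker genes tested were also lower. Their part in the NAC values below was not tested, and in RNA from whole seedlings fewer cells of a type and less RNA per cell cannot be told apart.

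Sequences were read for the members whose regulation is best known, to show what the genes carry besides their transcript levels. miR164, whose family members share their seed, targets a NAC subgroup. Its mature sequence is printed with the seed, bases 2 to 8, in capitals. The best-matching stretches of ORE1 and ORS1 transcripts follow, with the bases that differ from the full complement of the microRNA in capitals. These are counted as mismatches, also a G opposite U as at the last base of both stretches. The microRNA lies on chromosome 2 at chr2:19520770-19520790, plus strand. All sequences and positions are from RefSeq, build TAIR10.1, with T in place of U.
miR164a: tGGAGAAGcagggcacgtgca
ORE1 stretch: CTcacgtgAcctgcttctccG
ORS1 stretch: CTcacgtTAcctActtctccG
ORE1, a driver of age-dependent leaf senescence and the textbook target, had 4 mismatches to the microRNA. ORS1, its closest relative and also a promoter of senescence, had 6. Of the 113 family transcripts searched, 7 held a stretch with at most 4 mismatches, and among the 42 listed genes ORE1 was the 1 that did. The microRNA itself was not measured.

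Promoter stretches are shown because S1 bZIPs are known to bind elements with an ACGT core, and ANAC013 and ANAC017 a mitochondrial dysfunction motif. Within 250 bases upstream of the annotated start, on either strand, the G-box CACGTG stood in 7 of the 42 promoters (16.7%) and in 6.58% of 26710 promoters. The dysfunction motif, read as CTTG followed after 5 bases by CAAG or CACG, stood in 2 of 42 (4.76%) and in 1.18% of all. The WRKY-type elements TTGACC and TTGACT stood in 5 of 42 (11.9%) and in 28.5% of all. In the 71 family genes not listed, the G-box stood in 0 promoters, the dysfunction motif in 2 (2.82%) and a WRKY-type element in 18 (25.4%). As the 42 were chosen with results known, nothing is read from these shares. The stretches below carry the motif in capitals and read along the gene's own strand. NAP lies at chr1:26121830-26121868 (plus), ANAC032 at chr1:29099764-29099819 (plus), ANAC019 at chr1:19698578-19698633 (minus), ANAC017 at chr1:12451270-12451332 (plus) and NAC044 at chr3:228985-229047 (plus).
NAP: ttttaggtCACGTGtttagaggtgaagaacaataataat
ANAC032: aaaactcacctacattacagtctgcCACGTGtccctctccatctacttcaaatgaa
ANAC019: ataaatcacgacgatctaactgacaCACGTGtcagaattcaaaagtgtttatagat
ANAC017: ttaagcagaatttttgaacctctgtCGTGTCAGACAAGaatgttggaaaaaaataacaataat
NAC044: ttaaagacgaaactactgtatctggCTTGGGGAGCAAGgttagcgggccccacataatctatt
The other G-box promoters were those of ANAC014, ANAC062, NTM2 and NAC025. A match says that the letters are there, not that a factor binds them.

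In the SnRK1-labelled line the NAC genes stood mostly higher than in their wild type. Of the 39 tested, 34 were called higher, 3 were called lower (NAP, RD26 and ANAC014) and 2 were not called (ORS1 and ANAC017). Over all genes 68.4% were called, 35.4% higher and 33% lower, and since the list was chosen with results known nothing is read from the members' share. Of the 39, 8 (JUB1, NAC087, ANAC103, NAC004, NAC005, NAC044, ANAC061 and ANAC090) passed the filter on low counts only through the SnRK1-labelled libraries. For these the filter favoured higher values there in advance, and nothing is read from their direction. Of the other 31, 26 were called higher and 3 lower. The median log2 fold change was 2.07 over the 39 members, with the 8 among them, and 0.036 over all genes. The filter favoured higher values for the 8, so nothing is read from the gap between the 2 medians. With scaling by library totals alone these medians were 2.68 and 0.64, so both moved by about the same amount. Every line library lay above every wild-type library for 34 members, with the 8 among them, as for 36.9% of all genes. Below lay 3, as for 34%. Summed over the 42 loci the level was 823 to 892 CPM in the wild type and 1910.0 to 2361 CPM in the line. Of the tested members, 13 were below 5 CPM on average in the wild type and at 5 CPM or more in the line. Among them were JUB1, NAC087, ANAC103, NAC004 and NAC044, for which the filter favoured this in advance. All genes were not counted in this way, so nothing is read from the 13.

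**Figure D1:**
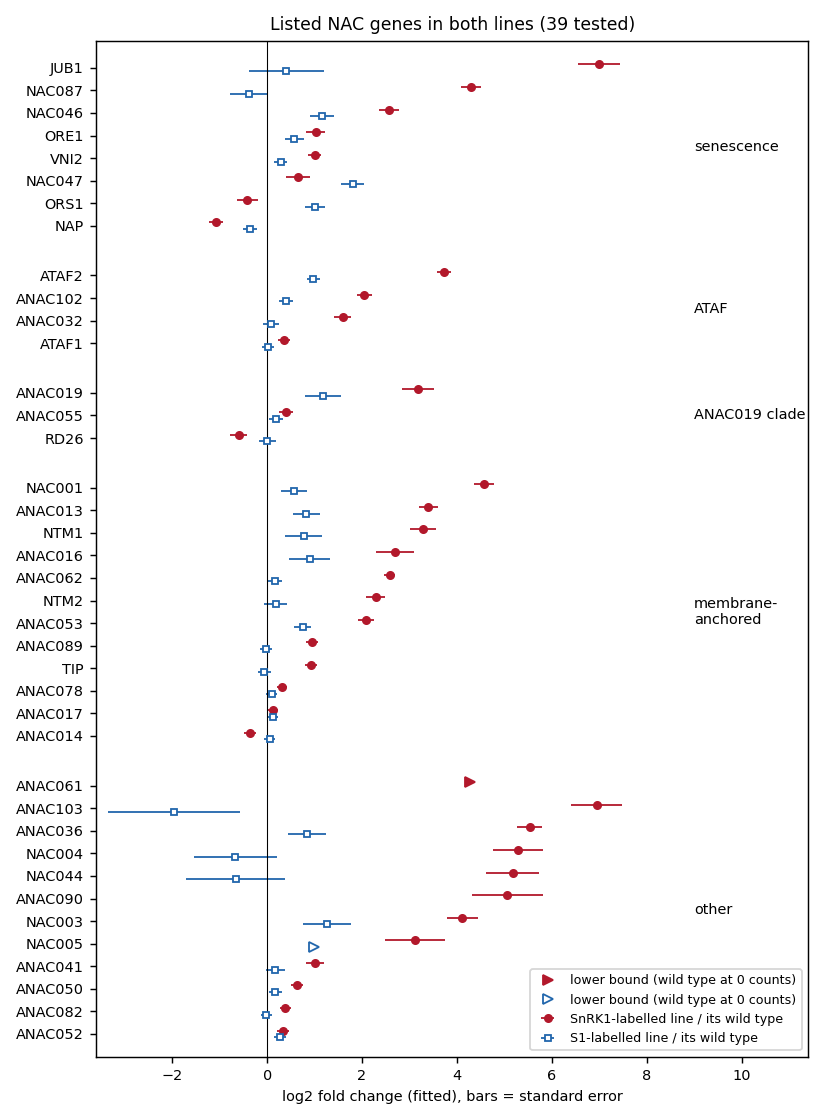
Fitted log2 fold change (x axis, bars are standard errors) of the 39 tested NAC genes in the SnRK1-labelled line (filled red) and the S1-labelled line (open blue), each against its own wild type, ordered within role groups; triangles mark lower bounds where the wild type had 0 counts, and ANAC061 and ANAC090 have no S1 point because both groups were at 0. Red points reach from -1.08 for NAP to 7.0 for JUB1, with 34 called higher, while most blue points lie near 0.

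The senescence members moved in both directions. Of 8, 6 were called higher (JUB1 and NAC087, which passed the filter only through this line, and NAC046, ORE1, VNI2 and NAC047) and NAP was called lower. Over all genes 35.4% were called higher and 33% lower. NAP (AT1G69490), which promotes senescence and chlorophyll breakdown, stood at 48.8, 49.4 and 49.3 CPM in the wild type and at 30.1, 20.9 and 18.5 CPM in the SnRK1-labelled line. All 3 line libraries were below all 3 wild-type libraries, which themselves hardly differed. The log2 fold change was -1.08 ± 0.15, and it ran from -1.32 to -0.49 over the other settings tried, in each of which NAP was called lower.

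ORE1 (AT5G39610) stood at 20.5, 27.5 and 44.1 CPM in the wild type and at 64.2, 66.7 and 49.3 CPM in the line. The lowest line library lay just above the highest wild-type library, and the wild-type libraries spread widely (log2 fold change 1.02 ± 0.20). ORS1 (AT3G29035) did not follow its closest relative, at 8.75, 13.8 and 13.6 CPM against 9.28, 9.93 and 6.91 CPM in the line. These ranges overlapped, and the value was -0.42 ± 0.23 and not called.

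JUB1 (AT2G43000), which is known to delay senescence, was close to undetected in the wild type at 0.129, 0.329 and 0 CPM. In the line it stood at 21.9, 29.3 and 21.8 CPM. That is 645 counts in the 3 line libraries against 3 counts in the wild type, a ratio of 144.8 with a 95% exact counting interval of 49.3 to 704. The same gene had 0 to 0.901 CPM in the 6 libraries of the S1 experiment.

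NAC046 (AT3G04060), which promotes chlorophyll breakdown, stood at 3.47, 3.79 and 4.62 CPM in the wild type and 20.8, 27.2 and 20.3 CPM in the line (2.57 ± 0.21). Its relative NAC087 (AT5G18270), known from programmed cell death in the root cap, was at 1.36 ± 0.254 CPM against 27.5 ± 1.79 CPM (mean ± SD, n = 3; log2 fold change 4.30 ± 0.22). VNI2 (AT5G13180), a repressor known to delay senescence, went from 46.5 ± 9.13 to 91.6 ± 8.31 CPM (1.00 ± 0.14). NAC047 (AT3G04070), tied to ethylene-driven leaf movement, was at 3.47, 3.79 and 5.77 CPM in the wild type and 6.14, 6.32 and 7.06 CPM in the line. Its groups were close to each other (0.65 ± 0.25), and the call was lost without any one of 4 libraries.

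The ATAF group, stress-responsive relatives that give the family 1 of its letters, had all 4 members called higher (35.4% of all genes), but by very different amounts. ATAF2 (AT5G08790), known from wounding and pathogen responses, stood at 27.4, 32.1 and 36.6 CPM in the wild type and 478, 424 and 353 CPM in the line. The groups were far apart (3.72 ± 0.15). Per kilobase of transcript ATAF2 was the most abundant of the 42 in the SnRK1-labelled line, at 274 CPM per kb, whereas ATAF1 led in its wild type at 52.5 CPM per kb. ANAC102 (AT5G63790), known from low-oxygen responses, came next in the line at 191 CPM per kb. It stood at 59.3, 71.3 and 51.1 CPM in the wild type and 298, 249 and 208 CPM in the line (2.05 ± 0.15).

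ANAC032 (AT1G77450) was at 10.4, 10.4 and 8.66 CPM in the wild type and 35.6, 27.2 and 27.3 CPM in the line (1.59 ± 0.18). ATAF1 (AT1G01720), a stress and abscisic acid regulator, stood at 77.7, 97.8 and 84.8 CPM against 126, 106 and 100 CPM. Its line libraries were all above the wild type, but narrowly, at 0.35 ± 0.13. The call for ATAF1 was lost without any one of 3 libraries. Part of the exon sequence of ATAF1 (22.5%), ATAF2 (10.3%) and ANAC102 (6.45%) overlaps a gene on the other strand, and without the strand of the reads the 2 sources cannot be told apart. The same holds outside this group for JUB1 (7.78%), ANAC078 (5.20%), VNI2 (1.59%) and ANAC013 (1.04%).

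The ANAC019, ANAC055 and RD26 trio acts downstream of abscisic acid and jasmonate in dehydration. Its members split. ANAC019 (AT1G52890) stood at 2.48 ± 1.03 CPM in the wild type and 20.9 ± 7.08 CPM in the SnRK1-labelled line (3.18 ± 0.33). ANAC055 (AT3G15500) differed little, at 22.9 ± 2.68 and 30.0 ± 5.08 CPM (log2 fold change 0.39 ± 0.15, a call lost without any one of 3 libraries). RD26 (AT4G27410), a dehydration-induced activator, was lower: 39.8, 48.1 and 43.0 CPM in the wild type and 35.5, 20.5 and 31.1 CPM in the line. The line libraries lay below the wild type but varied more among themselves (-0.60 ± 0.18). The RD26 call was lost under scaling by library totals alone, where the value was -0.0090, and on the 5000 most expressed genes, where it was -0.24.

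**Figure D2:**
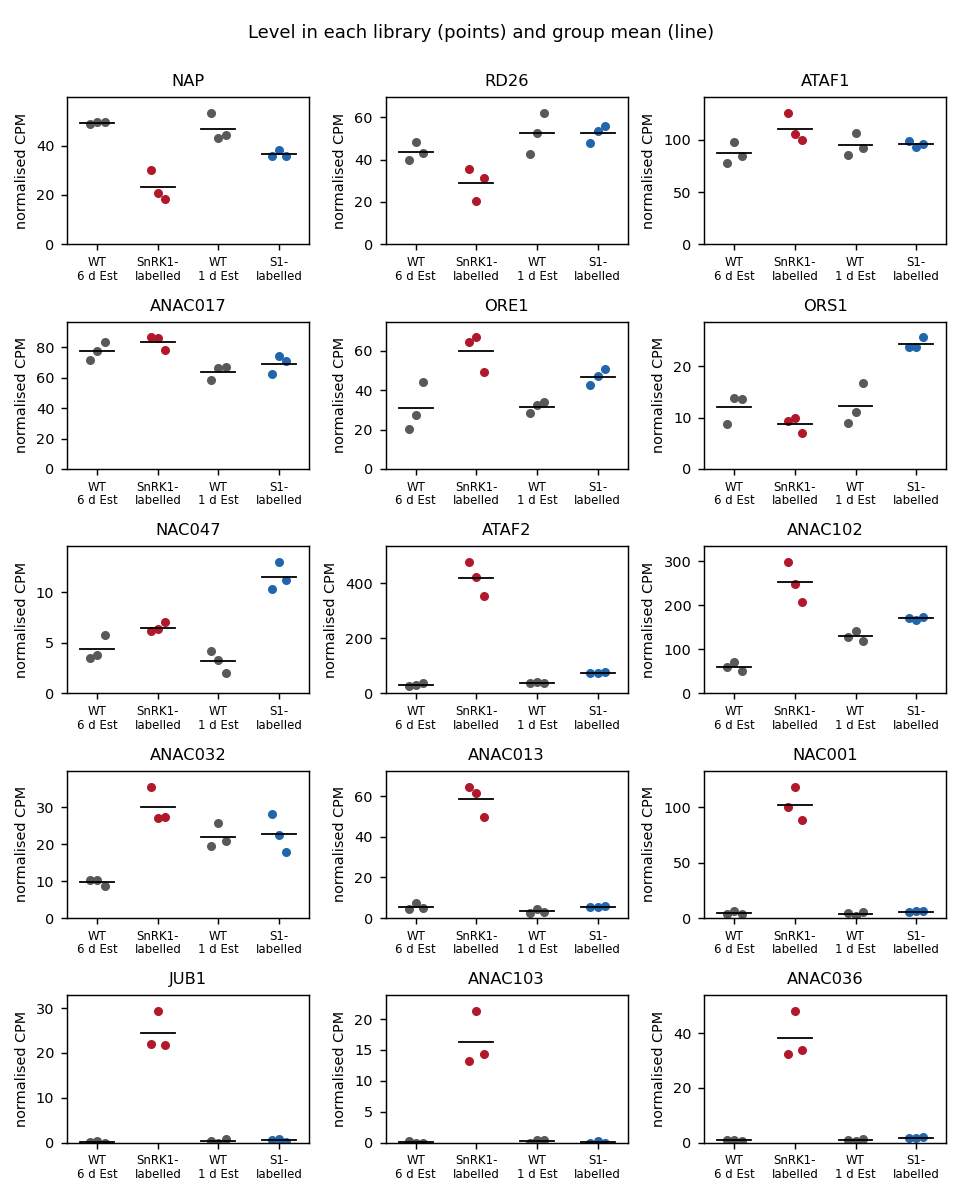
Normalised CPM of 15 NAC genes in each of the 12 libraries (points; y axes start at 0 and differ between panels) with the group mean (line), for the wild type with 6 d of Est, the SnRK1-labelled line, the wild type with 1 d of Est and the S1-labelled line. NAP is lowest in the SnRK1-labelled line at 18.5 to 30.1 CPM, JUB1, ANAC103 and ANAC036 are near 0 outside that line, and ORS1 and NAC047 are highest in the S1-labelled line.

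Membrane anchoring was read from the protein sequence, independently of transcript levels. The measure was the highest mean Kyte-Doolittle hydropathy of 19 residues within the last 60. It reached 1.94 to 2.81 in 14 of the 42 proteins and at most 0.726 in the other 28, and the dividing value of 1.9 was set after these values were seen. Among the 71 family genes that are not listed, 1 reached it (NTL8). The 14 proteins were 335 to 652 residues long. Of their genes 12 were tested in the SnRK1 comparison, with 10 called higher, ANAC014 lower and ANAC017 not called. Their median log2 fold change was 2.18. Over all genes 35.4% were called higher and 33% lower, with a median of 0.036. As these genes belong to the list chosen with results known, nothing is read from their share.

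**Figure D3:**
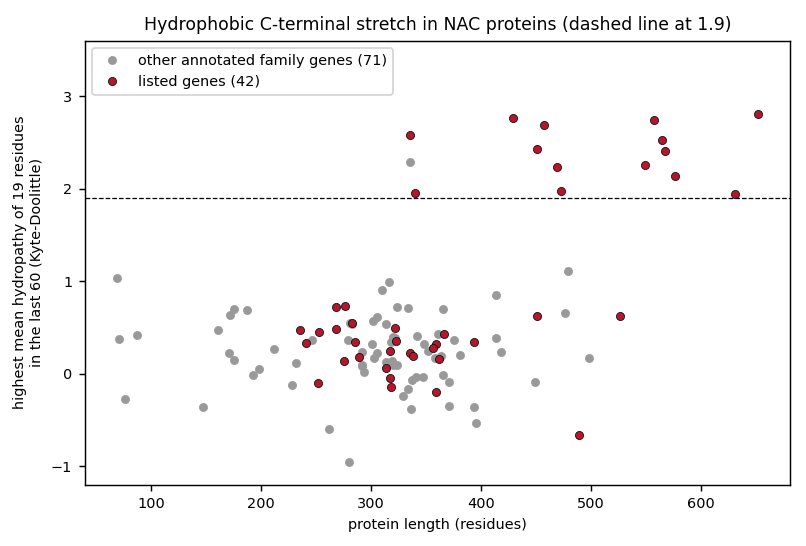
Protein length in residues (x axis) against the highest mean hydropathy of 19 residues in the last 60 (y axis) for 42 listed (red) and 71 other family proteins (grey), 1 protein a gene. The 14 listed proteins above the dashed line at 1.9 stand apart from the rest, the next listed protein being at 0.726.

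Among the anchored factors, ANAC013 and ANAC017 relay stress from mitochondria to the nucleus. ANAC013 (AT1G32870) stood at 4.25, 7.57 and 4.91 CPM in the wild type and 64.7, 61.5 and 49.9 CPM in the SnRK1-labelled line. The groups were far apart (3.40 ± 0.20). ANAC017 (AT1G34190) was at 71.5, 77.8 and 83.7 CPM and 86.5, 86.5 and 78.1 CPM. Its ranges overlapped, at 0.11 ± 0.11 and not called; with libraries scaled by totals alone it was 0.71 and called, where the median of all genes was 0.64.

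NAC001 (AT1G01010), an anchored factor, stood at 3.35, 5.92 and 3.46 CPM in the wild type and 100.1, 119 and 88.5 CPM in the line (4.58 ± 0.21). No role is given for it here. Among the 12 tested it had the highest value. ANAC014 (AT1G33060) had the lowest, at 28.1, 28 and 24.8 CPM against 19.1, 20.6 and 23.6 CPM in the line (-0.37 ± 0.12). With libraries scaled by totals alone that value turned to 0.24, and the call was also lost on the 5000 most expressed genes and without the first line library (-0.31).

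ANAC053 and ANAC078 are known to activate proteasome genes under proteotoxic stress, and ANAC053 also reactive oxygen production in drought. ANAC053 (AT3G10500) stood at 17.5, 19.6 and 23.1 CPM in the wild type and 80.2, 99.3 and 68.8 CPM in the line (2.07 ± 0.17). ANAC078 (AT5G04410) stood at 98.2, 88.1 and 83.7 CPM against 119.8, 117 and 98.7 CPM. That is a narrow gap (0.31 ± 0.11), and the call was lost without any one of 4 libraries. It was also lost when only the 2 groups compared were fitted. ANAC062 and ANAC089, which respond to stress in the endoplasmic reticulum, had values of 2.58 ± 0.12 and 0.95 ± 0.12. The remaining called members were TIP, named for its interaction with a viral coat protein, at 0.92 ± 0.13, ANAC016, which promotes senescence, at 2.69 ± 0.40, the cell division regulator NTM1 at 3.28 ± 0.27, and NTM2, which acts in salt stress during germination, at 2.28 ± 0.20. For NTM1, 16.3% of its 50-base stretches also occur elsewhere in the genome, and for NTM2 6.44%, so their counts are less certain. The share was 2.42% for ANAC082 and at most 1.5% for the other listed genes. ANAC060 (anchored, a regulator in glucose and abscisic acid responses) had at most 0.577 CPM in any library, and ANAC028 at most 2.13 CPM.

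The other 13 listed genes had 12 tested and called higher, where 35.4% of all genes were called higher. Of the 12, 6 passed the filter only through the SnRK1-labelled libraries, which favoured higher values there in advance (ANAC103, NAC004, NAC005, NAC044, ANAC061 and ANAC090). ANAC103 (AT5G64060), a factor downstream of bZIP60 in the unfolded protein response, had 0.257, 0 and 0 CPM in the wild type and 13.2, 21.3 and 14.4 CPM in the SnRK1-labelled line. That is 437 counts against 2, a ratio of 147.1 with a 95% exact counting interval of 40.5 to 1219. ANAC036 (AT2G17040), which reduces leaf growth when overexpressed, stood at 0.901, 0.823 and 0.577 CPM and 32.2, 48.0 and 33.8 CPM (5.54 ± 0.26). NAC004 (AT1G02230), whose role is not described here, stood at 0.515, 0.165 and 0 CPM and 10.7, 13.4 and 11.3 CPM (5.28 ± 0.53). The groups were far apart for each of these genes.

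NAC044 (AT3G01600), which arrests the cell cycle after DNA damage, had 0.386, 0 and 0 CPM in the wild type and 6.14, 7.04 and 7.36 CPM in the line. That is 176 counts against 3, a ratio of 39.5 (13.3 to 193). ANAC061 (AT3G44350) was at 0 counts in all 9 libraries outside the line, and at least 19.3-fold higher in it against a floor of 3 counts over the wild-type group. Its relative ANAC090 (AT5G22380), a repressor of salicylic acid dependent senescence, had 65 counts against 1, a ratio of 43.8 (7.58 to 1755). These intervals and floors cover counting error only. NAC003 (4.11 ± 0.33), NAC005 (3.12 ± 0.63) and ANAC041 (1.01 ± 0.20) were called too. NAC025, an endosperm factor, had counts in 2 line libraries and 0 elsewhere.

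Smaller values came from the abundant members of this group. ANAC052 (AT3G10490), which with ANAC050 works beside a histone demethylase, stood at 37.6, 32.3 and 38.4 CPM in the wild type and 50.9, 46.2 and 38.5 CPM in the line (0.33 ± 0.12). The lowest line library was level with the highest wild-type library, and the call was lost without any one of 3 libraries. ANAC050 was at 0.62 ± 0.13 and ANAC082, a mediator of ribosomal stress, at 0.38 ± 0.12, a call lost without the second wild-type library.

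Close relatives were paired by protein identity to see how members of a pair differed. There were 12 reciprocal closest pairs with at least 60% identical residues, and 10 could be ordered by their level per kilobase in the wild type of the S1 experiment, which the SnRK1 comparison does not use. In 8 of these 10 pairs the less expressed member had the larger log2 fold change in the SnRK1-labelled line. ANAC019 (1.74 CPM per kb) and ANAC055 (17.7 CPM per kb), with 74.1% identity, had 3.18 and 0.39. ANAC016 (0.822 CPM per kb) and ANAC017 (24.3 CPM per kb), with 74.5% identity, had 2.69 and 0.11. ATAF2 (24.9 CPM per kb) and ANAC102 (98.5 CPM per kb) were 79.9% identical and had 3.72 and 2.05. The exceptions were ORS1 with ORE1 and NAC005 with NAC004. NAC087, NAC004 and NAC005 passed the filter only through the SnRK1-labelled libraries, so a high value there was a condition of being paired. All pairs come from the list chosen with results known, and nothing is read from the 8 of 10.

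**Figure D4:**
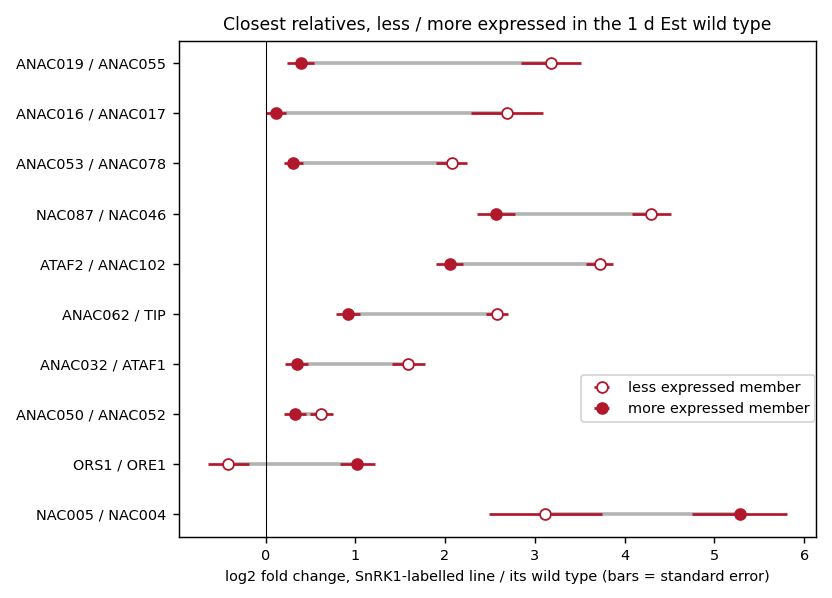
Fitted log2 fold change in the SnRK1-labelled line against its wild type (x axis, bars are standard errors) of the less expressed (open) and the more expressed member (filled) of 10 pairs of closest NAC relatives, ordered by level in the 1 d Est wild type. The open circle lies to the right in 8 of 10 pairs, and to the left for ORS1 with ORE1 and for NAC005 with NAC004. NAC087, NAC004 and NAC005 passed the filter on low counts only through the SnRK1-labelled line.

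In the S1-labelled line fewer NAC genes were called than in the SnRK1-labelled line. Of the 39 tested, 5 (12.8%) were called higher (NAC047, ATAF2, ORS1, NAC046 and ANAC053) and 0 lower. Over all genes 2.58% were called, 1.63% higher and 0.952% lower. At an unadjusted p under 0.05 edgeR gave 12 higher (30.8%) and 1 lower (2.56%), where it gave 8.27% of all genes higher and 8.0% lower. As the list was chosen with results known, nothing is read from the members' shares. DESeq2 gave 5 and 0 at the adjusted threshold, where it called 3.08% of all genes. Every line library lay above every wild-type library for 15 members (11.6% of all genes) and below for 1, NAP (12% of all genes). The median log2 fold change was 0.18, and -0.0026 over all genes.

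NAC047 stood at 4.22, 3.33 and 2.00 CPM in the wild type and 10.3, 13.0 and 11.2 CPM in the S1-labelled line. The line libraries were all more than double any wild-type library (1.8 ± 0.25). ATAF2 was at 37.0, 40.2 and 37.0 CPM against 72.8, 72.8 and 77.7 CPM, with little spread in either group (0.97 ± 0.14). ORS1 stood at 8.86, 11.2 and 16.8 CPM and 23.8, 23.8 and 25.6 CPM (1.01 ± 0.21). The 3 genes were highest in the S1-labelled line among S1 libraries, without overlap.

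NAC046 was at 3.38, 4.28 and 2.20 CPM in the wild type and 6.28, 7.93 and 7.81 CPM in the line (1.16 ± 0.24). ANAC053 was at 15.8, 19.3 and 13.2 CPM against 23.9, 32.3 and 24.7 CPM (0.75 ± 0.18). The calls of ORS1, NAC046 and ANAC053 were each lost without any one of 4 or 5 of the 6 libraries, with values of 0.79 to 1.31, 0.96 to 1.34 and 0.62 to 0.88 over all settings tried. NAP, at 53.2, 43.0 and 44.2 CPM against 35.6, 38.4 and 35.8 CPM, was not called (-0.36 ± 0.15). The G-box genes had small or uncertain values here: ANAC032 was at 0.07 ± 0.17, ANAC019 at 1.18 ± 0.38, ANAC014 at 0.05 ± 0.12, ANAC062 at 0.16 ± 0.15 and NTM2 at 0.18 ± 0.24, none of them called. Of the 5 called members, 4 were also called higher in the SnRK1-labelled line, as were 35.4% of all genes. There ORS1 was at -0.42 ± 0.23. The overlap of the 2 lines over all genes was not counted, so nothing is read from the 4 of 5. The 2 comparisons use separate wild types.

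Set against each other, the 2 responses differed for 28 of the 39 members in the test of the difference, with 24 larger in the SnRK1-labelled line and 4 smaller, where 54.5% of all genes were called (27.2% larger, 27.3% smaller). The 4 smaller ones were NAP, ORS1, NAC047 and ANAC014. ORS1 and NAC047 had differences of -1.43 ± 0.31 and -1.15 ± 0.36. The lines also differ in the length of Est treatment, so genotype and treatment time cannot be told apart in this difference.

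The 2 wild types differed little for the NAC genes. After 6 d of Est 2 of the 39 were called lower than after 1 d, ANAC102 and ANAC032, and 0 higher, where 12.1% of all genes were called (6.17% higher, 5.94% lower). At an unadjusted p under 0.05 edgeR gave 4 higher and 3 lower, where it gave 13.8% of all genes higher and 13.9% lower. DESeq2 gave 0 and 2 at the adjusted threshold, where it called 11.6% of all genes. ANAC102 stood at 59.3, 71.3 and 51.1 CPM after 6 d and 129, 142 and 119 CPM after 1 d (-1.09 ± 0.15). ANAC032 stood at 10.4, 10.4 and 8.66 CPM after 6 d and 19.4, 25.7 and 21.0 CPM after 1 d (-1.13 ± 0.19). Neither gene overlapped between the wild types. In all, 4 members lay above without overlap (17% of all genes) and 3 below (17% of all genes). The wild type with 6 d of Est is also the control of the SnRK1-labelled line, so these 2 values and the higher values in that line share libraries. Against the 1 d wild type, the SnRK1-labelled libraries of ANAC032, at 27.2 to 35.6 CPM, and of ANAC102, at 208 to 298 CPM, were still the higher ones.

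The annotation gives the whole family, from which the 42 were picked. Of 113 loci, 60 were tested. In the SnRK1-labelled line 47 were called higher (35.4% of all genes) and 4 lower (33% of all genes). In the S1-labelled line 5 were called higher (1.63% of all genes) and 0 lower (0.952% of all genes). There edgeR at an unadjusted p under 0.05 gave 16 and 1 (8.27% and 8.0% of all genes), and DESeq2 gave 5 and 0. The 71 unlisted loci had 21 tested, with 13 called higher and 1 lower in the SnRK1-labelled line. Of the 21, 10 passed the filter only through that line's libraries, which favoured higher values there in advance. Of the other 11, 3 were called higher and 1 lower. NAC096, one of the 10, stood at 0.257, 0.165 and 0.289 CPM in the wild type and 33.1, 27.8 and 23.4 CPM in that line (6.82 ± 0.34). SOG1, the master regulator of the DNA damage response that acts upstream of NAC044, was at 8.11 ± 1.03 and 18.2 ± 0.468 CPM (1.17 ± 0.15). NAC084 had 2.43 ± 0.36. LOV1, known from flowering time, was lower (-0.66 ± 0.21). Of the unlisted genes tested, 14 lay above (36.9% of all genes) and 1 below (34% of all genes) without overlap.

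Genes known to act around these factors were described from lists that were also drawn up with earlier results of these libraries known. They are given with no p-value, and the examples are mostly the called genes with the smallest p. In the SnRK1 comparison 35.4% of all genes were called higher and 33% lower. The mitochondrial retrograde list, targets of ANAC013 and ANAC017, had 12 of 12 genes called higher in the SnRK1-labelled line, with a median log2 fold change of 5.42, and 4 of them, UPOX and HSP23.5 included, passed the filter only through that line. OM66, an outer membrane ATPase, stood at 0.643, 0.329 and 2.31 CPM in the wild type and 312, 285 and 263 CPM in the line (8.32 ± 0.30). UPOX, an oxidative stress marker, was at 0.983 ± 0.294 against 72.9 ± 13.1 CPM. HSP23.5, a mitochondrial small heat shock protein, was at 0.831 ± 0.320 against 77.5 ± 4.39 CPM. ANAC013 was higher beside them and ANAC017 was not called.

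Genes of the unfolded protein response had 7 of 7 called higher, with a median of 4.79. The chaperone BIP3, which passed the filter only through this line, stood at 0.515, 0 and 0 CPM in the wild type and 388, 385 and 362 CPM in the line. BIP1 was at 27.9 ± 2.74 against 1333 ± 284 CPM (5.57 ± 0.21). The transcription factor bZIP60, which acts upstream of ANAC103, was at 26.2 ± 3.72 against 230.4 ± 6.83 CPM (3.14 ± 0.12). ANAC062 and ANAC089 were higher in the same libraries. So was ANAC103, which passed the filter only through this line, and nothing is read from its direction.

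Proteasome and oxidase genes downstream of ANAC053 and ANAC078 had 8 of 14 called higher and 0 lower, with a median of 0.47, and 2 of the 8, RBOHC and RBOHE, passed the filter only through this line. Under the 3 other scalings 8 to 14 of them were called higher and 0 lower. The oxidase gene RBOHC was at 0.990 ± 0.287 against 10.5 ± 2.12 CPM (3.38 ± 0.32). The subunit genes PBA1 (1.1 ± 0.11) and RPT4A (0.99 ± 0.10) differed less.

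The senescence and chlorophyll breakdown list of 11 genes had 9 tested, 5 called higher and 1 lower, with a median of 0.61, and 2 of the 9, BFN1 and RNS3, passed the filter only through this line. SAG13, an early senescence marker, stood at 0.901, 0.658 and 1.73 CPM and 146, 176 and 104 CPM (7.15 ± 0.32). SAG113, a phosphatase gene that NAP activates, was at 2.94 ± 0.547 against 37.6 ± 10.6 CPM (3.63 ± 0.28), while NAP itself was lower. NYC1, the chlorophyll b reductase, was lower at 118, 128 and 142 CPM against 36.9, 11.9 and 41.6 CPM (-2.12 ± 0.28).

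Drought and jasmonate outputs had 4 of 5 tested genes called higher, with a median of 3.10. ICS1, the salicylic acid synthesis gene that the ANAC019 trio is known to repress, was at 10.3 ± 1.66 against 223 ± 36.6 CPM (4.47 ± 0.16). LOX2, a jasmonate synthesis gene, stood at 5.53, 16.8 and 7.21 CPM and 1457, 577 and 281 CPM, a wide spread in the line (6.28 ± 0.69). VSP1, a jasmonate marker, was at 2.78 ± 1.26 against 25.6 ± 10.3 CPM (3.10 ± 0.33).

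JUB1 is known to activate DREB2A and to repress GA3OX1 and DWF4. DREB2A was at 4.25, 2.14 and 2.31 CPM against 17.2, 6.77 and 6.46 CPM (1.72 ± 0.38). GA3OX1, a gibberellin synthesis gene, was at 5.28, 4.28 and 5.48 CPM against 0.752, 0.632 and 1.35 CPM (-2.50 ± 0.32). DWF4 was not called (0.42 ± 0.23).

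Of 11 upstream regulators of NAC genes, 7 were called lower and 2 higher, with a median of -0.38 that turned to 0.21 (4 higher, 2 lower) with libraries scaled by their totals alone. PIF5, which activates ORE1 in darkness, was at 608 ± 87.1 against 189 ± 66.8 CPM (-1.69 ± 0.20). ABF4, an abscisic acid response factor, was at 74.1 ± 5.24 against 33.0 ± 5.05 CPM (-1.17 ± 0.12). MYC2, the jasmonate regulator that activates ANAC019 and its relatives, was higher at 31.2 ± 3.33 against 67.0 ± 10.9 CPM (1.11 ± 0.14). In the S1-labelled line the medians of these 7 lists lay between -0.21 and 0.50, where 1.63% of all genes were called higher and 0.952% lower. There 3 of 12 mitochondrial genes (AOX1A, UGT74E2 and HSP23.5) and 1 of 5 drought and jasmonate genes (LOX2) were called higher, and 1 of 7 unfolded protein response genes (CRT1) was called lower.

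**Figure D5:**
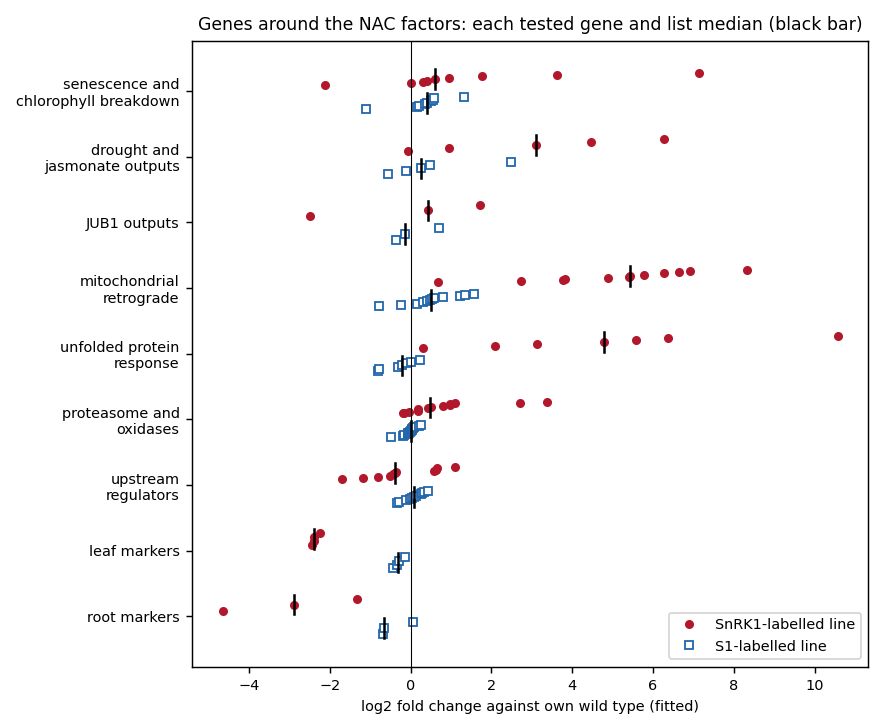
Fitted log2 fold change against the own wild type (x axis) of each tested gene in 9 lists, in the SnRK1-labelled line (filled red) and the S1-labelled line (open blue), with the list median as a black bar; a gene at 0 counts in its wild type is drawn at its lower bound. The mitochondrial retrograde list, with a median of 5.42, and the unfolded protein response list, with 4.79, lie farthest to the right in the SnRK1-labelled line, and leaf markers lie at -2.39.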

How the data were processed

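Whole seedlings were sequenced as 12 RNA libraries, grouped from the labels into 4 groups of 3. The authors deposited raw read counts per gene. Bowtie 0.12.8, SAMtools 0.1.18, FastQC and build TAIR10 are named in the submitters' processing notes. Neither the counting tool nor its strand setting is named there. Library totals were 3760168 to 9403687 counts, and the number of libraries and these totals limit the precision of low genes.

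The quasi-likelihood test of edgeR 4.0.16 (R 4.3.3) was fitted to all 12 libraries with group as the term, trimmed-mean scaling and filterByExpr at a minimum count of 10, which left 18388 of 28775 genes. P-values were Benjamini-Hochberg adjusted over all genes tested. Standard errors were derived from the fitted log2 fold change and its F statistic. The code was tested on simulated data. Alternatives were DESeq2 1.42.0, other scalings, filters and fits, a 2-fold minimum, and leaving out each library. Figures used matplotlib 3.10.9 with Python 3.11.15.

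The 42 members, the gene lists and the tests were chosen with earlier results of these data known. Members named with every library's value were 6 chosen by name (NAC001, ATAF1, ORE1, NAP, JUB1 and ANAC013), the 6 highest called in the SnRK1 comparison with at least 5 CPM in the higher group, the 3 called lower there, the called members of the S1 and wild-type comparisons, and the 4 nearest 0. Unlisted family genes were the 3 highest called, by the same minimum level, and the 1 called lower, and each gene list gave up to 3 called genes with the smallest p. Further genes were named by their role after values were seen. Names, sequences and positions came from RefSeq, build TAIR10.1, with 28009 of 28775 loci and 42 of 42 members matched.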

Additional observations from a re-analysis of the deposited data

Results flagged for a closer look

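For 28 of the 39 tested genes, edgeR's test of the difference between the 2 line responses passed the threshold. These are descriptions, since the genes were chosen with results known, and the lines differ in the length of Est treatment as well as in genotype. Values are the log2 response in the SnRK1-labelled line minus that in the S1-labelled line. Among the senescence members the difference was -0.72 for NAP, 6.59 for JUB1, -1.43 for ORS1, -1.15 for NAC047, 4.69 for NAC087, 1.41 for NAC046 and 0.71 for VNI2. For NAP and NAC047 it no longer passed with libraries scaled by totals alone or on the 5000 most expressed genes. In the ATAF group it was 2.75 for ATAF2, 1.51 for ANAC032 and 1.65 for ANAC102, and in the dehydration trio 2.00 for ANAC019. Among the anchored factors it was 2.57 for ANAC013, 1.8 for ANAC016, -0.42 for ANAC014, 1.33 for ANAC053, 2.42 for ANAC062, 0.98 for TIP, 0.97 for ANAC089, 2.51 for NTM1, 2.10 for NTM2 and 4.01 for NAC001. Among the other genes it was 8.91 for ANAC103, 0.46 for ANAC050, 2.86 for NAC003, 5.95 for NAC004, 4.70 for ANAC036, 5.84 for NAC044 and 0.83 for ANAC041. Of 19 other settings the call was lost in 14 for ANAC014, 11 for ANAC050, 4 for ANAC016 and 3 for ANAC041. JUB1, ANAC103 and NAC044 had only 3, 2 and 3 counts in the 6 d wild type, and NAC004 had 4, 1 and 0 in its libraries. In the S1 experiment these genes had 0 to 7 counts a library, and the S1 response of ANAC103 was -1.965 ± 1.393. The standard errors of their differences were 1.258 for JUB1, 1.836 for ANAC103, 1.435 for NAC044 and 1.183 for NAC004. The fitted size of these differences depends on a prior count.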

How the results depend on the processing

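Of the single-gene values, 1221 kept direction and side of the threshold, 24 newly passed it, 50 lost it and 38 changed sign, 35 of these in values called in neither setting. With library totals alone, where the median of all genes moved to 0.64 in the SnRK1 comparison and 0.51 in the difference, ANAC014 went to 0.24 and 0.064 in these and ORS1 to 0.18 in the SnRK1 comparison, ANAC017 to 0.47 in the difference and NAP to -0.0055 between the wild types. The difference for ANAC017 (-0.00 with all choices as reported) was also 0.35 on the 5000 most expressed genes, 0.018 with RLE size factors, 0.020 with DESeq2, 0.036 with the 5 CPM filter and 0.00015 with the replicate block. RD26 in the S1 comparison was -0.0021 with DESeq2 and -0.0014 with the 5 CPM filter. With each library left out, S1 values that changed sign ran from -0.050 to 0.11 for ATAF1, -0.11 to 1.39 for JUB1, -1.3 to 0.89 for NAC004, -0.13 to 0.15 for RD26, -0.0038 to 0.13 for ANAC014 and -0.12 to 0.23 for ANAC032. Differences ran from -0.084 to 0.053 for ANAC017 and -0.038 to 0.11 for ANAC052, and wild-type values from -0.20 to 0.37 for NAC001, -0.40 to 0.16 for ORE1, -0.42 to 0.021 for ANAC036, -2.22 to 0.64 for NAC004, -3.79 to 0.10 for NAC044 and -0.26 to 0.26 for ORS1. Scaling by totals took the share of higher calls among all genes in the SnRK1 comparison from 51.8% to 78.1% (68.7% on the 5000 most expressed genes), in the S1 comparison from 63.1% to 84.5%, in the difference from 49.9% to 74.7% and between the wild types from 51.0% to 33.5%. Members called lower in the SnRK1 comparison went from 3 to 1 with library totals, on the 5000 most expressed genes and with a 2-fold minimum, and the family's from 4 to 1 in each and to 7 with no filter. Members and family genes called higher in the S1 comparison went from 5 to 8 with only the compared groups and to 3 with a 2-fold minimum, and ran from 2 to 5 with each library left out (2 without 1 d WT 1, line 2 or line 3, and 3 without 1 d WT 2 or WT 3). For the difference, smaller calls went from 4 to 1 with either scaling and 2 with a 2-fold minimum for members, and from 5 to 1, 2 and, with DESeq2, 3 for the family, which ran from 3 to 7 with each library left out. Between the wild types members called higher went from 0 to 1 with no filter and ran from 0 to 1 with each library left out, and the family's 1 call went to 0 with RLE size factors, library totals, the 5000 genes, DESeq2, the replicate block, only the compared groups and the 2-fold minimum, and ran from 0 to 1. The causes were not tested. Of called members, 29 of 37, 2 of 5 and 2 of 2 held in all 14 other settings of the SnRK1, S1 and wild-type comparisons, and 22 of 28 in the 19 of the difference. Named as wild type (WT) and line libraries by number, the calls lost in the SnRK1 comparison were NAC047 without WT 1, WT 2, line 2 or line 3 (0.49 to 0.65), ATAF1 without WT 1, WT 3 or line 1 (0.24 to 0.32), ANAC055 without WT 1, WT 3 or line 1, ANAC078 without WT 2, WT 3, line 1 or line 2 (0.25 to 0.28), ANAC052 without WT 2, line 1 or line 2 (0.24 to 0.30), ANAC014 without line 1 (-0.31) and ANAC082 without WT 2. In the S1 comparison they were ORS1 without WT 1, WT 2, line 2 or line 3 (0.79 to 1.04), NAC046 without WT 1, WT 3, line 2 or line 3 (0.96 to 1.2) and ANAC053 without WT 1, WT 2, WT 3, line 2 or line 3 (0.62 to 0.88). With only the compared groups fitted, the ANAC078 and ANAC052 calls of the SnRK1 comparison were lost too. Same-numbered libraries did not deviate together (correlations of 0.118, -0.0076 and -0.019 in the SnRK1 comparison), and samples did not all correlate best with their own number, so the numbers were not taken to pair samples. With the replicate block members called were 34 and 3, 5 and 0, 24 and 5, and 0 and 2 in the SnRK1, S1, difference and wild-type comparisons. Library depth limits genes near 0, such as ANAC060, ANAC028 and NAC025.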
